A study of Mus musculus with 2 samples.

Results

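Megakaryocyte and platelet genes were followed in RNA from sorted blood-forming stem cells (haematopoietic stem cells, HSCs). The set holds 37 genes, given by symbol and matched to Ensembl identifiers, and 37 of 37 were found in both deposited tables. They stand among 28013 genes obtained by summing transcripts and among 37820 genes of the gene table. They were grouped by role into 8 classes: receptors for von Willebrand factor, the fibrinogen receptor, collagen and podoplanin receptors, granule cargo, granule formation, agonist receptors, eicosanoid enzymes, and a small class of cytoskeletal genes with a transcription factor.

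HSCs had been sorted from fetal liver at E14.5 (embryonic day) and from the bone marrow of adult B6129SF1 mice aged 6 to 8 weeks, and polyadenylated RNA was sequenced. The adult group is described by 2 samples, replicates 1 and 2; separate fetal samples were not analysed here, and for sort markers, mice per library and the strain of the fetal mice nothing is stated in the labels. The values are the authors' FPKM (fragment numbers scaled to feature length and library size) in a transcript table and a gene table. The headers in each are FL, read as fetal liver, and BM, read as bone marrow. No column carries replicates, so no value has an error, no difference could be judged against replicate error, no test was possible, and the sequencing depth is unknown.

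Megakaryocytes are the large bone marrow cells that shed platelets. Platelets catch on von Willebrand factor at a damaged vessel wall through the GPIb-IX-V complex, are activated by collagen, ADP, thrombin and thromboxane, bind fibrinogen through the integrin made by Itga2b and Itgb3, and release stored proteins such as platelet factor 4 from their granules. HSCs and megakaryocytes share several transcription factors, and a fraction of adult HSCs is known to carry transcripts of platelet genes such as Vwf. Several of these genes are also active in other cells: Vwf, Selp, F2r, Thbs1 and Mmrn1 in endothelium, and F13a1 in macrophages.

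The promoters of the 6 members with the largest BM to FL ratios in the transcript table, among the 30 of 37 that had an entry, are shown (Itgb3 and Rab27b, also among the largest, had none), because these members stood together at the top of the set and because GATA, ETS and NF-E2 factors are known regulators of the lineage. Each runs from 250 bases before to 50 bases after the RefSeq transcript start (build GRCm38.p6), with matches to the motifs searched in capitals.
Pf4 (chr5:90772185-90772484, plus strand): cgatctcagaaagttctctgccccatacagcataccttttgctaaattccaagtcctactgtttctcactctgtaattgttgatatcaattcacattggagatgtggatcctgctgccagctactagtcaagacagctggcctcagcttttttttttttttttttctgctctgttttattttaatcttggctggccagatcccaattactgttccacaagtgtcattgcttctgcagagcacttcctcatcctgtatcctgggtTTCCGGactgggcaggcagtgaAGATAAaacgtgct
Itga2b (chr11:102469834-102470133, minus strand): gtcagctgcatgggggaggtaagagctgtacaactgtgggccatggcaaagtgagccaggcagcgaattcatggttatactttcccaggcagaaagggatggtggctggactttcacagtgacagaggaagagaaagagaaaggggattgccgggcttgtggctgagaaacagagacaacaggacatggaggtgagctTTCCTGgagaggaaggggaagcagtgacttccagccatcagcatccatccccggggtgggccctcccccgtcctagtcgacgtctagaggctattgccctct
Gp1bb (chr16:18622354-18622653, minus strand): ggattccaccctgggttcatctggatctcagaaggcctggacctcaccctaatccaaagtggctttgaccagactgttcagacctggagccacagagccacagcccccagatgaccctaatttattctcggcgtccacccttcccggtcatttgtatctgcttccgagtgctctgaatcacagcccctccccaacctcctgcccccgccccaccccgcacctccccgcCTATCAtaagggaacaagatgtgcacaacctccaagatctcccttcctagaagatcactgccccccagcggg
Plek (chr11:17008669-17008968, minus strand): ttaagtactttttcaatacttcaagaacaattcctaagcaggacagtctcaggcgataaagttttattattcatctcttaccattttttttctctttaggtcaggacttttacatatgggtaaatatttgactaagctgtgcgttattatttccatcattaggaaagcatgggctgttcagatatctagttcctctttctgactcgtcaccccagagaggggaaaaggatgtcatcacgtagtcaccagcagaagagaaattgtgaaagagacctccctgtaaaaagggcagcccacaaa
Ppbp (chr5:90768268-90768567, plus strand): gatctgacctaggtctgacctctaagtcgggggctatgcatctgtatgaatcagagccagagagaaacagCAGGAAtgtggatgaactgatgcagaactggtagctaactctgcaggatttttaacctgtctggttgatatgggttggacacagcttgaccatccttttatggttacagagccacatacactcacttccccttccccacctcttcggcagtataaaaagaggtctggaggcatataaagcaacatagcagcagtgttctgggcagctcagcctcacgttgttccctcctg
Lat (chr7:126369519-126369818, minus strand): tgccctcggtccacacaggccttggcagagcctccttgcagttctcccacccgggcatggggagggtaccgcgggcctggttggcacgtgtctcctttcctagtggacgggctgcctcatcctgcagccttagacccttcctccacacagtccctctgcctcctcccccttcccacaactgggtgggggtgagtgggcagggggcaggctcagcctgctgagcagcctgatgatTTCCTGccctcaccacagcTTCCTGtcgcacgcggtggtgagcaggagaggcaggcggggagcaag

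All motifs were searched on both strands. For GATA factors the letters AGATAA were searched, then the letters TGATAA, then the letters AGATAG and finally the letters TGATAG. For ETS factors the letters CAGGAA were searched and also the letters CCGGAA, and for NF-E2 and AP-1 the letters TGACTCA and also the letters TGAGTCA. None of these strings for different factors is contained in another. In these windows Pf4 held a GATA and an ETS match, both after the start, Gp1bb held a GATA match, Itga2b and Ppbp held an ETS match each, Lat held 2 ETS matches and Plek held none. Over the 30 members with a promoter, 9 (30.0%) held a GATA match, against 33.0% of 27025 genes. An ETS match was held by 13 members (43.3%), against 44.7% of all genes. Both together were held by 4 members (13.3%), namely Gp1ba, Pf4, Mmrn1 and P2rx1, against 12.9% of all genes. An NF-E2 or AP-1 match was held by 2 members (6.67%), F2r and F2rl2, against 5.95% of all genes. The shares of the members were thus near those of all promoters of this length. A match is a string of letters and not a bound site.

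Columns with the same header did not hold the same values in the 2 tables. Of 33 members at 1 FPKM or more in both columns, 28 lay within 10% of a constant ratio of 1.05 between BM of the gene table and FL of the transcript table; among 3520 genes with a single linked transcript this share was 74.6%. Between the columns headed BM it was 1 of 32 members, against 16.3% of single-transcript genes. Between the columns headed FL it was 3 of 31 members, against 13.4%. Pf4, for example, stood at 74.9 FPKM in BM of the gene table, at 70.5 FPKM in FL of the transcript table, and at 535 FPKM under the other header there. For most members BM of the gene table therefore is close to FL of the transcript table, which leaves 3 differing profiles. Which of them the labels of the adult samples belong to cannot be told from the files, and every value is given by table and header. The members outside the 10% band were Nbeal2 (ratio 1.64), P2ry1 (1.52), Vwf (1.40), Selp (1.28) and Gp1ba (1.24), for which the gene table held more than the sum of linked transcripts.

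**Figure D1:**
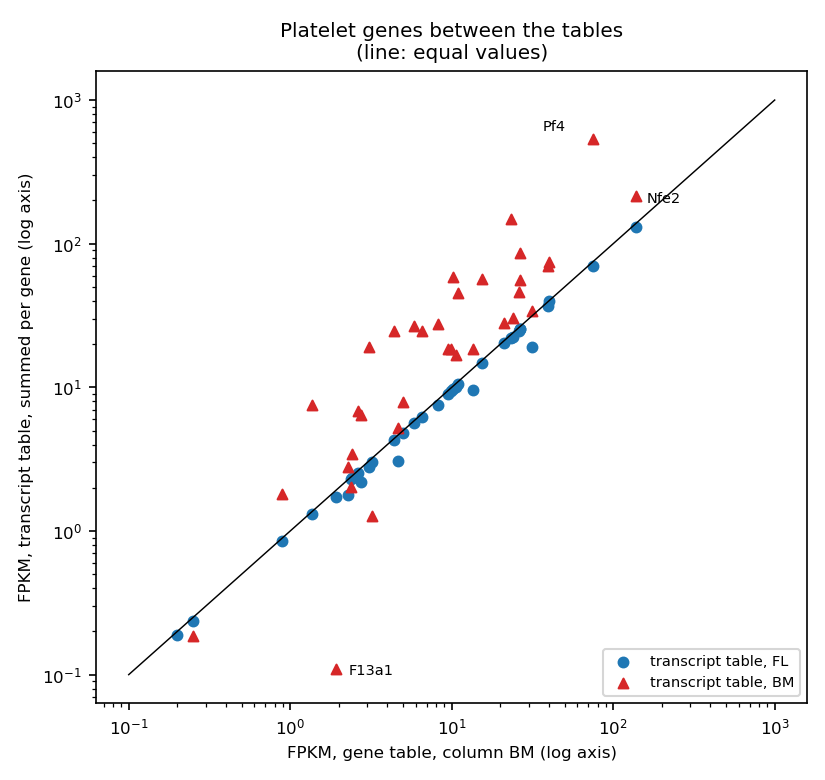
Each platelet gene at 0.1 FPKM or more is drawn by its FPKM in BM of the gene table (x, log axis) and in FL (circles) or BM (triangles) of the transcript table (y, log axis), and the line marks equal values. The circles follow the line, with 28 of 33 members at 1 FPKM or more in both columns within 10% of a ratio of 1.05, while most triangles, such as Pf4 at 535 FPKM, lie above it and F13a1 at 0.109 FPKM lies below it.

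The transcript table was used to ask how platelet genes differ between its FL and BM columns. Of all 37 members, 31 had a higher value in BM, 5 a lower value, and Gp6 was listed at 0 in both columns. Among the 34 members at 1 FPKM or more in either column, 31 had a ratio above the centre, the median ratio defined below. Of 12221 genes at this level, 50.8% had. The 37 genes summed to 563 in FL and 1724 FPKM in BM, which is 0.0947% and 0.327% of the FPKM linked to genes. Pf4 alone made 12.5% of the first sum and 31.0% of the second, and without it the sums were 493 and 1189 FPKM. A level of 10 FPKM or more was reached by 14 members in FL and 23 in BM.

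Differences are given as relative log2 ratios: log2 of (BM + 0.1) over (FL + 0.1), centred on the median ratio of genes at a minimum of 1 FPKM under each header, which was 0.01. The pseudocount of 0.1 FPKM makes differences of low genes too small. At 1 FPKM or more in either column were 34 members, 32 of them in both. Of these 34, 16 (47.1%) were at least 2-fold higher in BM, where 13.3% of 12221 genes at this level were. At least 2-fold lower were 2 members (5.88%), Clec1b and F13a1, against 8.82% of all genes at this level. The median relative log2 ratio was 0.98 for the members and 0.02 for all genes. Without the filter on level, 16 of 37 members were higher and 3 lower, against 8.64% and 6.75% of all genes. Because 2 of the 34 members, Alox12 and F13a1, reached 1 FPKM in a single column, the filter itself favoured a difference for them.

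**Figure D2:**
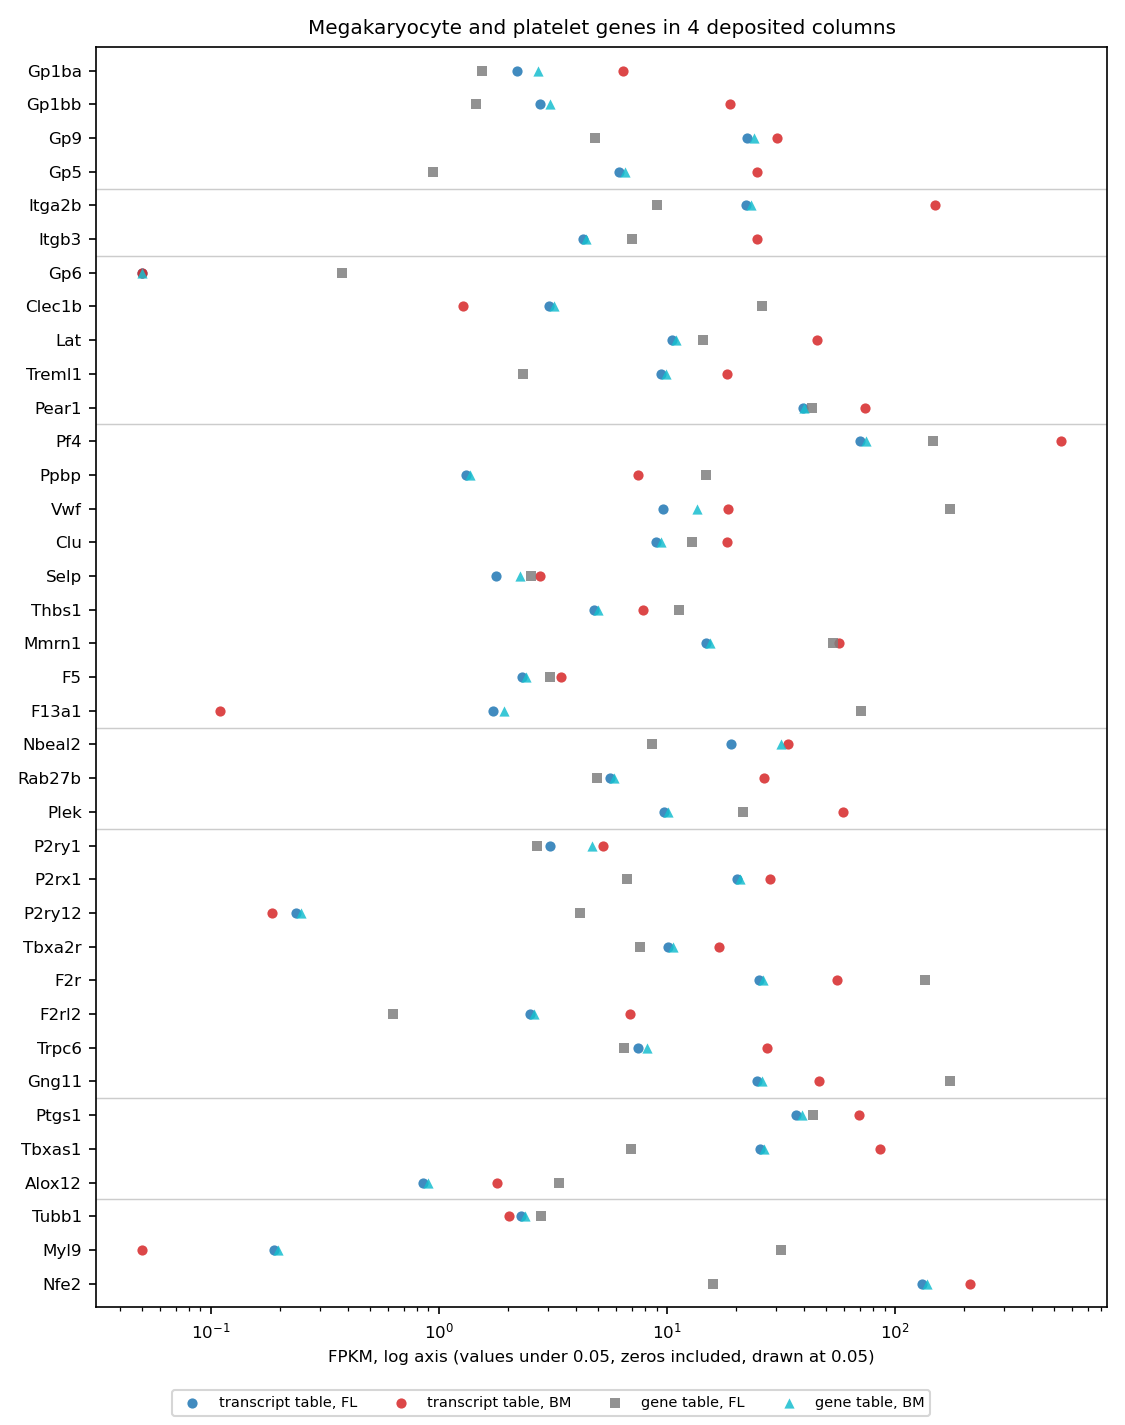
FPKM (x, log axis) of each of the 37 genes (y, in the order of their roles, lines between classes) in the FL and BM columns of both tables; values under 0.05 FPKM are drawn at 0.05. The highest point is Pf4 at 535 FPKM in BM of the transcript table, and FL of the transcript table lies close to BM of the gene table for most genes.

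**Figure D3:**
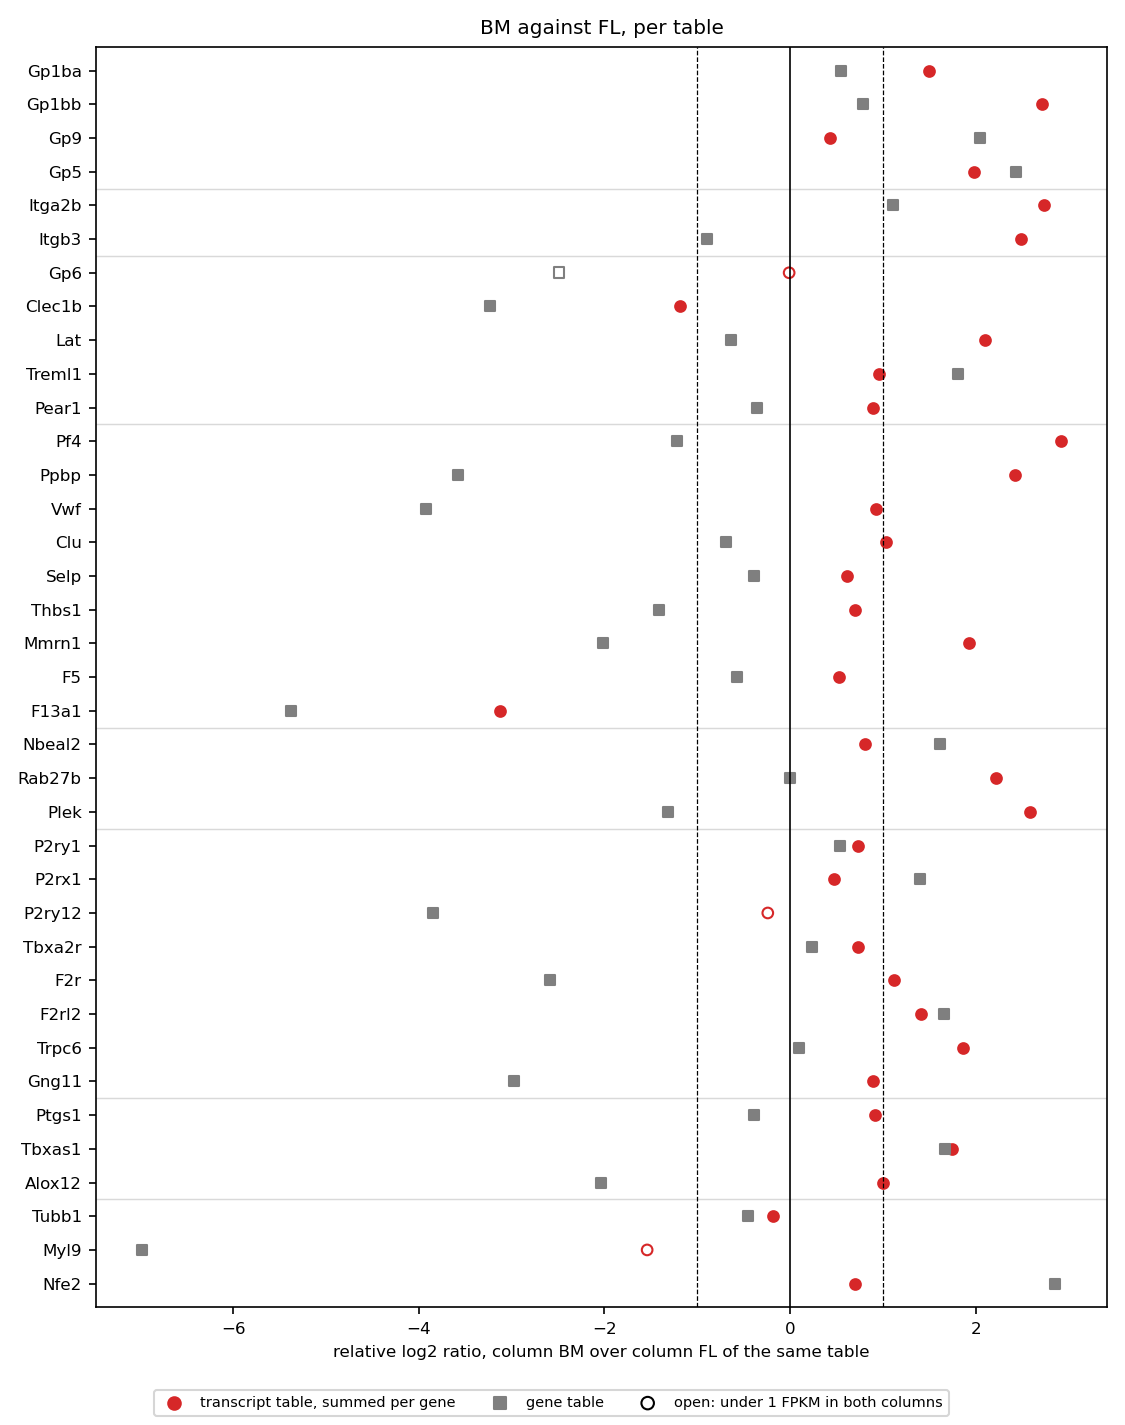
Relative log2 ratio of BM over FL (x) for each of the 37 genes (y), in the transcript table (circles) and the gene table (squares), with dashed lines at 2-fold and open symbols for genes under 1 FPKM in both columns. Filled circles of 16 genes lie past the right dashed line, Pf4 (2.92) farthest, and filled squares of 13 genes lie past the left one.

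The receptor for von Willebrand factor is a complex of the products of Gp1ba, which carries the binding site, Gp1bb, Gp9 and Gp5. In the transcript table Gp1ba was at 2.21 in FL and 6.43 FPKM in BM, a 2.92-fold higher FPKM and a relative log2 ratio of 1.5. The numbers in brackets that follow are relative log2 ratios. Gp1bb was at 2.79 and 19.0 FPKM (2.72), a 6.81-fold higher FPKM. Gp5 was at 6.18 and 24.8 FPKM (1.98). These 3 genes were thus higher in BM by more than 2-fold, while Gp9 was at 22.4 and 30.5 FPKM (0.43). Gp9 was the most abundant subunit gene in both columns, at 10.2 times the level of Gp1ba in FL and 4.74 times in BM. The exons of Gp1bb share 1902 bases with Sept5 on the same strand, so the separate values of these genes are uncertain.

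The fibrinogen receptor genes were both among the members with the largest ratios. Itga2b, which encodes the integrin alpha chain CD41 found on megakaryocytes, platelets and early blood stem cells, was at 22.2 in FL and 149 FPKM in BM (2.74). It ranked 4190 among 28013 genes in FL and 439 in BM. Itgb3, the beta chain, which also pairs with another alpha chain in other cells, was at 4.30 and 24.8 FPKM (2.49). The ratio of Itga2b to Itgb3 was 5.17 in FL and 6.02 in BM, so the pair differed between columns of the transcript table by similar folds. In the gene table the ratio was 1.29 in FL and 5.28 in BM. There the relative log2 ratios were 1.11 for Itga2b and -0.9 for Itgb3.

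Receptors that signal through tyrosine kinases, and related membrane proteins, went in different directions. Lat, an adaptor that relays these signals and is shared with T cells, was at 10.5 in FL and 45.6 FPKM in BM (2.10). Treml1, a receptor of the granule membrane, was at 9.38 and 18.4 FPKM (0.96). Pear1, a receptor of platelets and endothelium that responds to platelet contact, was at 39.7 and 74.1 FPKM (0.89). Both were just under 2-fold higher. Clec1b, the podoplanin receptor, which liver sinusoidal endothelium and myeloid cells also make, was at 3.04 and 1.28 FPKM (-1.19). Gp6, the collagen receptor of platelets, was listed at 0 in both columns.

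Granule cargo genes held the member with the largest ratio and the member with the smallest. Pf4, which encodes the chemokine platelet factor 4, was at 70.5 FPKM in FL, where it ranked 1416 among 28013 genes, and at 535 FPKM in BM, where it ranked 122 (2.92). Ppbp, its neighbour on the chromosome and the gene of a related platelet chemokine, was far less abundant, at 1.31 and 7.48 FPKM (2.42). The ratio of Pf4 to Ppbp was 53.7 in FL and 71.5 in BM. Mmrn1, whose product multimerin binds factor V, was at 14.8 and 57.1 FPKM (1.93). Clu, the gene of the secreted chaperone clusterin, was at 8.95 and 18.4 FPKM (1.03), at the edge of the 2-fold band.

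Other cargo genes were higher in BM by less than 2-fold. Vwf, which encodes von Willebrand factor itself, was at 9.66 in FL and 18.6 FPKM in BM (0.93). Thbs1, the thrombospondin gene, was at 4.78 and 7.84 FPKM (0.70). Selp, the P-selectin gene, was at 1.77 and 2.77 FPKM (0.61), and its chromosomal neighbour F5, the gene of coagulation factor V, at 2.32 and 3.42 FPKM (0.53). F13a1, whose product cross-links fibrin, went the other way, at 1.73 in FL and 0.109 FPKM in BM (-3.13), and this ratio rests on a value close to the pseudocount. F13a1 and Clec1b were the members at least 2-fold lower. Macrophage markers, which summed to 258 in FL and 4.69 FPKM in BM, were lower in the same column, 10 of 10, where 8.82% of all genes were. So were erythroid (10 of 11), neutrophil and monocyte (9 of 11), hepatocyte (6 of 7), mast cell and basophil (3 of 3) and endothelial markers (5 of 10). The part of any of these cells in the result was not tested.

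Genes of granule formation and secretion were higher in BM. Plek encodes pleckstrin, a main substrate of protein kinase C in platelets that leukocytes also hold, and was at 9.72 in FL and 59.0 FPKM in BM (2.58). Rab27b, a GTPase of dense granule secretion, was at 5.62 and 26.7 FPKM (2.22). Nbeal2, which is needed to form alpha-granules, was at 19.2 and 33.8 FPKM (0.81). With BM of the gene table (31.5 FPKM) in place of FL of the transcript table, the Nbeal2 ratio was 0.22.

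The receptors through which platelets sense agonists were present at various levels, with the thrombin receptor gene F2r the most abundant of them in BM of the transcript table. F2r was at 25.4 in FL and 55.8 FPKM in BM (1.12). Its relative F2rl2 was at 2.52 and 6.86 FPKM (1.41), and the cation channel gene Trpc6 at 7.49 and 27.6 FPKM (1.86). The other expressed members of this class were within 2-fold. P2rx1, an ATP-gated channel gene, was at 20.2 and 28.2 FPKM (0.47). The thromboxane receptor gene Tbxa2r was at 10.1 and 16.9 FPKM (0.73), and Gng11, a G protein gamma subunit gene, at 24.8 and 46.3 FPKM (0.89). The ADP receptors differed in level: P2ry1 was at 3.08 and 5.22 FPKM (0.73), while P2ry12, the target of clopidogrel, was at 0.235 and 0.185 FPKM, under 1 FPKM in both columns.

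The eicosanoid pathway of platelets runs from Ptgs1, the cyclooxygenase that aspirin blocks, to Tbxas1, the thromboxane synthase. Ptgs1 was at 36.7 in FL and 69.6 FPKM in BM (0.92). Tbxas1 was at 25.5 and 85.8 FPKM (1.74). The ratio of Tbxas1 to Ptgs1 was thus 0.695 in FL and 1.23 in BM, so the order of the pair differed between the columns. Alox12, the platelet lipoxygenase gene, was far lower, at 0.849 and 1.80 FPKM. Its FPKM was 2.12-fold higher in BM, but with the pseudocount and centring its ratio was just under 2-fold, so it is not counted among the 16 higher members. With a pseudocount of 0.01 FPKM its relative log2 ratio was 1.07.

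In the last class the cytoskeletal genes Tubb1 and Myl9 were low in the transcript table and the transcription factor gene was high. Tubb1, the beta-tubulin gene that platelets use for their marginal ring of microtubules, was at 2.29 in FL and 2.02 FPKM in BM (-0.18). Myl9, a myosin light chain gene of platelets and smooth muscle, was at 0.189 in FL and listed at 0 in BM. Nfe2, which encodes the factor needed for platelet release and is also used by erythroid cells, was at 131 and 214 FPKM (0.70). It was the most abundant member in FL, at rank 692, and was second to Pf4 in BM, at rank 288. The level of the members thus spanned genes listed at 0, such as Gp6, and genes among the most abundant of the column.

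The transcript table also gives values for single transcripts of the members, which GENCODE assigns to classes. For 18 members with at least 2 linked transcripts and 1 FPKM or more in both columns, the leading transcript was the same in both columns for 17. The exception was Gp1ba, where transcript 202 held 85.1% of the sum in FL and 48.8% in BM. In Clu, transcript 201 held 47.0% in FL and 74.9% in BM. How reads were divided among overlapping transcripts is not stated, so these shares are estimates of unknown error.

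Transcripts of the retained intron, processed transcript and nonsense-mediated decay classes, which encode no full protein, took a larger share of the sum in BM for 12 of the 14 members that had such a transcript and reached 1 FPKM in both columns. Over all genes meeting the same limits the share was larger in BM for 3474 of 5791. The median share was 5.43% in FL and 13.9% in BM for the members, and 9.06% and 12.2% for all genes. In Ptgs1 it was 14.0% and 38.6%, in Vwf 19.0% and 36.9%, and in Clu 1.93% and 17.9%. In Itga2b it was 12.4% and 14.0%. The exceptions were Selp, with 12.9% in FL and almost none in BM, and Rab27b, whose transcript of this kind was listed at 0 in both columns. Over transcripts outside these classes, Ptgs1 was at 31.5 in FL and 42.8 FPKM in BM, and Vwf at 7.83 and 11.7 FPKM. The ratios of Ptgs1, Vwf and Clu were thus smaller for the transcripts expected to encode protein, while Itga2b, at 19.5 and 128 FPKM, kept a ratio near that of its sum.

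**Figure D4:**
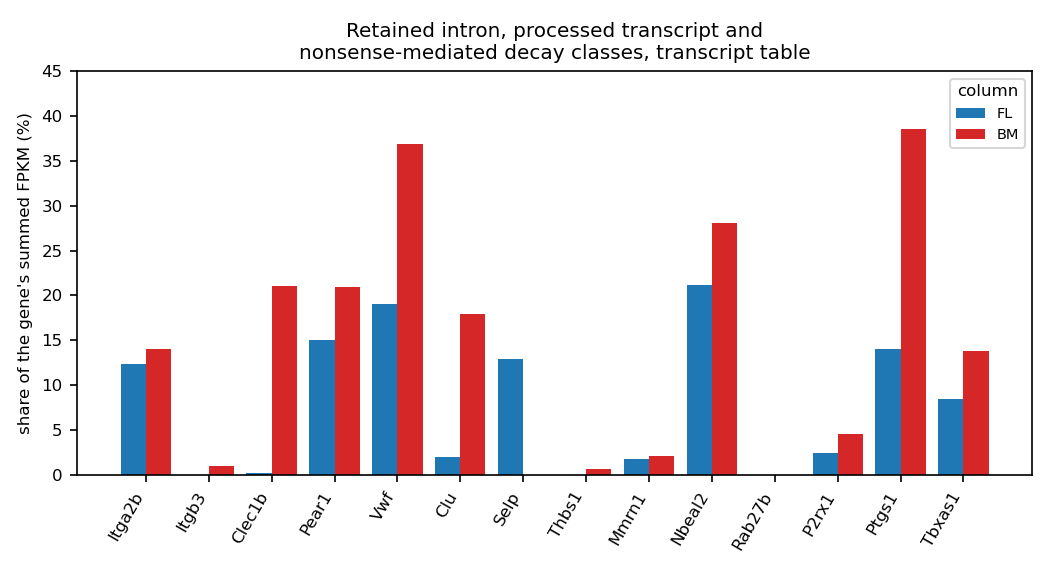
Share of each gene's summed FPKM (y, percent) held by transcripts of the retained intron, processed transcript and nonsense-mediated decay classes in the FL and BM columns of the transcript table, for the 14 members with such a transcript and 1 FPKM or more in both columns (x). The BM bar is the taller for 12 genes, with Ptgs1 at 38.6% the highest, Selp is the reverse, and Rab27b is at 0 in both.

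Regulators of the lineage and other platelet genes were read in the transcript table against the same shares of all genes, 13.3% higher and 8.82% lower. Of 16 measured megakaryocyte transcription factor genes, 3 were higher in BM and 1 was lower, with a median of 0.37. Meis1, a homeobox factor gene of stem cells and megakaryocytes, was among the higher ones (66.8 in FL and 162 FPKM in BM), as was Gata2, an early GATA factor gene (68.3 and 165 FPKM). Gata1, the main factor of megakaryocyte and erythroid maturation, was the lower one, at 51.4 and 24.4 FPKM. Of 10 expressed genes of thrombopoietin signalling, 1 was higher and 1 lower, with a median of 0.23. Cish, a feedback inhibitor gene induced by STAT5, was higher, at 4.65 in FL and 15.4 FPKM in BM, and Sh2b3, a gene that restrains the pathway, was lower, at 38.3 and 18.4 FPKM.

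Of 25 genes of platelet signalling and integrin activation 5 were higher in BM and none lower (median 0.45), with Rgs18, a regulator of G protein signalling in platelets, at 18.3 in FL and 87.4 FPKM in BM. Rap1b, a GTPase gene, was at 103 and 286 FPKM. Fermt3, the kindlin that activates the integrin, was at 157 and 201 FPKM. Of 21 genes of granule and secretion machinery 3 were higher and none lower (median 0.23), among them Srgn, the granule proteoglycan gene, at 401 and 855 FPKM. Of 15 expressed genes of the platelet formation cytoskeleton 1, the formin gene Diaph1 (34.6 and 96.7 FPKM), was higher and 1, the tropomyosin gene Tpm4 (26.3 and 11.7 FPKM), was lower, with a median of -0.14. Of 23 expressed other platelet-associated genes 10 were higher and 3 lower (median 0.54). Prkg1, a kinase gene of nitric oxide signalling, was at 2.19 and 12.4 FPKM, Angpt1, a growth factor gene of megakaryocytes and HSCs, at 29.2 and 144 FPKM, and the tetraspanin gene Cd9 at 35.1 and 146 FPKM. The 3 lower genes of this last list were Dok2 (107 and 47.5 FPKM), Pde3a (1.26 and 0.345 FPKM) and Cd36 (1.03 and 0.452 FPKM). The medians of these 6 lists were 0.54 or less, and that of the members was 0.98. By count of higher genes, however, the other platelet-associated genes (10 of 23) stood near the members (16 of 34).

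In bulk RNA, more cells of a type and more RNA per cell cannot be told apart. Marker lists were read against the same shares of all genes, 13.3% higher and 8.82% lower. In the transcript table endothelial markers summed to 317 in FL and 174 FPKM in BM. None of 10 expressed markers was at least 2-fold higher in BM and 5 were lower, with Cdh5, Stab2 and Lyve1 under 0.1 FPKM there. Egfl7, at 224 in FL and 95.0 FPKM in BM, made most of both sums, so the lower endothelial sum rests largely on this gene. Tie1, the next most abundant, was at 45.6 and 57.6 FPKM. Erythroid markers summed to 1057 and 510 FPKM, with 10 of 11 lower; Car2, at 469 FPKM in BM, made most of the second sum, and Alas2 was listed at 0 there. Neutrophil and monocyte markers summed to 529 and 98.6 FPKM, with 9 of 11 lower, and mast cell and basophil markers to 11.4 and 2.29 FPKM, with 3 of 3 expressed markers lower. Hepatocyte markers summed to 42.7 and 13.3 FPKM, with 6 of 7 lower. The higher platelet genes of this column thus stood beside lower sums of these 5 lists and of the macrophage list. HSC and progenitor markers summed to 437 and 501 FPKM, with 2 of 10 at least 2-fold higher in BM, Ly6a (6.62 and 35.96 FPKM) and Ptprc (3.32 and 9.57 FPKM), and 1 lower, Cd48 (25.1 and 6.09 FPKM). Whether single megakaryocytes or attached platelets were among the sorted cells was not tested.

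**Figure D5:**
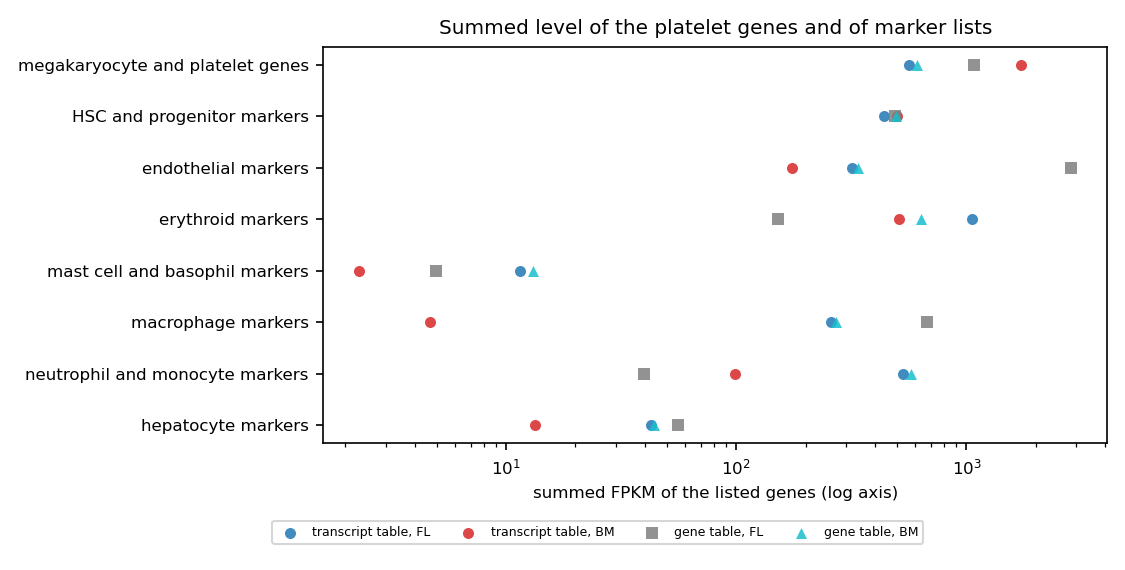
Summed FPKM (x, log axis) of the 37 platelet genes and of 7 marker lists (y) in the FL and BM columns of both tables. The platelet genes sum highest in BM of the transcript table (1724 FPKM), where 6 of the marker lists, the endothelial, mast cell, macrophage and hepatocyte lists among them, lie below their sum in FL of that table.

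The gene table was then used to set its FL column, the third profile, beside its BM column. Here the platelet genes split by gene. Of 36 members at 1 FPKM or more in either column, 9 (25.0%) were at least 2-fold higher in BM, against 12.3% of 13834 genes, and 13 (36.1%) were at least 2-fold lower, against 23.6%. The median relative log2 ratio was -0.42, and -0.07 over all genes, after a centring shift of 0.24. P2ry12, Myl9, Alox12, Gp5 and F2rl2 reached 1 FPKM in a single column. The members summed to 1079 in FL and 609 FPKM in BM. Since BM of the gene table is close to FL of the transcript table for most members, both comparisons share 1 profile, and their ratios are not independent.

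The members higher in BM of the gene table were mainly platelet receptors and the lineage factor. Nfe2 was at 16.0 in FL and 138 FPKM in BM (2.86). Gp5 was at 0.941 and 6.54 FPKM (2.43), Gp9 at 4.82 and 24.02 FPKM (2.05), and Treml1 at 2.33 and 9.92 FPKM (1.81). Tbxas1 was at 6.99 and 26.6 FPKM (1.67), F2rl2 at 0.630 and 2.62 FPKM (1.66, and 0.93 with a pseudocount of 1 FPKM), Nbeal2 at 8.61 and 31.5 FPKM (1.62), P2rx1 at 6.65 and 21.01 FPKM (1.40) and Itga2b at 9.08 and 23.3 FPKM (1.11). FL of this table thus held the lowest level of these 9 genes among the 3 profiles. Gp1ba, at 1.54 and 2.73 FPKM, and Gp1bb, at 1.45 and 3.07 FPKM, were within 2-fold after centring.

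The members lower in BM of the gene table included most cargo genes. Vwf was at 174 in FL and 13.5 FPKM in BM (-3.92), and F2r at 135 and 26.5 FPKM (-2.59). Gng11 was at 174 and 26.1 FPKM (-2.98), Mmrn1 at 53.3 and 15.5 FPKM (-2.02) and Thbs1 at 11.3 and 4.97 FPKM (-1.41). These are genes that endothelium also expresses. F13a1 was at 71.2 and 1.92 FPKM (-5.38), Clec1b at 26.1 and 3.20 FPKM (-3.23), P2ry12 at 4.16 and 0.249 FPKM (-3.85) and Myl9 at 31.6 and 0.198 FPKM (-6.98), genes known from macrophages, sinusoidal endothelium or smooth muscle as well. The platelet chemokine genes were in the same group, Ppbp at 14.8 and 1.37 FPKM (-3.58) and Pf4 at 147 and 74.9 FPKM (-1.22). The ratio of Pf4 to Ppbp was 9.97 in FL of this table and 54.6 in BM. Plek was at 21.6 and 10.1 FPKM (-1.32), and Alox12 at 3.37 and 0.895 FPKM (-2.04). Gp6 was at 0.376 FPKM in FL, its only value above 0.

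Lists were read in the gene table against the shares of all 13834 genes, 12.3% higher and 23.6% lower. Endothelial markers summed to 2858 in FL and 337 FPKM in BM, with 11 of 11 lower in BM. Macrophage markers summed to 673 and 271 FPKM, with 6 of 10 lower and 4 higher. Mrc1, a receptor gene of macrophages and sinusoidal endothelium, was a lower one, at 65.3 and 2.73 FPKM. The 4 higher ones were Vcam1, Timd4, Marco (0.372 in FL and 28.4 FPKM in BM) and Cd5l (1.34 and 52.1 FPKM). Erythroid markers summed to 152 and 636 FPKM, with 7 of 11 higher in BM and 1 lower, and neutrophil and monocyte markers to 39.6 and 572 FPKM, with 11 of 11 higher. Mast cell and basophil markers summed to 4.97 and 13.1 FPKM and hepatocyte markers to 55.7 and 43.7 FPKM. Nfe2, which erythroid cells share, was higher in the same column as the erythroid list and the neutrophil and monocyte list. In the transcript table Nfe2 was at 131 in FL and 214 FPKM in BM, while 10 of 11 erythroid markers were lower in BM there. In the gene table HSC and progenitor markers summed to 490 and 494 FPKM, with 5 of 10 higher in BM and 2 lower. Cd34 (279 and 120 FPKM) and Procr (121 and 54.0 FPKM) were the lower ones. Among the higher ones Slamf1 was at 0.652 in FL and 14.9 FPKM in BM, and Hlf, a stem cell transcription factor gene, at 7.85 and 74.9 FPKM. The part of endothelium and macrophages in the FL values of Vwf, F2r, F13a1 and the other members, and of erythroid cells in the BM value of Nfe2, was not tested. Of the pathway lists, the megakaryocyte transcription factors had 8 of 16 genes higher in BM and 1 lower (median 0.90), thrombopoietin signalling 3 of 10 higher and none lower (0.27), and platelet signalling 9 of 25 higher and 1 lower (0.39). Granule and secretion machinery had 7 of 21 higher and none lower (0.42). The platelet formation cytoskeleton had 2 of 16 higher and 7 lower (-0.53), and the other platelet-associated genes 4 of 25 higher and 15 lower (-2.02).

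The order of levels differed with the profile. In BM of the transcript table it began with Pf4 (535 FPKM), Nfe2 (214 FPKM) and Itga2b (149 FPKM), in FL of that table with Nfe2 (131 FPKM), Pf4 (70.5 FPKM) and Pear1 (39.7 FPKM), and in FL of the gene table with Gng11 and Vwf (174 FPKM each) and Pf4 (147 FPKM).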

How the data were processed

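The authors deposited FPKM values in a gene table and a transcript table, whose columns FL and BM have no replicate numbers. Per the submitters' processing notes, TopHat, Cufflinks, featureCounts of Subread and edgeR and the build mm9 were used; their versions and roles, the annotation and any pooling of replicates are not stated there. FPKM retains no depth and depends on the abundant genes of its column. The molecule field reads genomic DNA, while the protocol describes poly(A) RNA. The BM columns were assigned to the adult group (2 samples) by header alone, and FL was read as fetal liver from the protocol.

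Transcripts were linked to genes by identifier through GENCODE M21: 76512 of 87641 were linked, and unlinked ones carried 10.4% of the FPKM in FL and 10.9% in BM. FPKM were summed per gene. Symbols of other lists were found in the transcript table for 187 of 189. Promoters came from RefSeq. Ratios were tested on simulated data. Python 3.11.15, numpy 2.4.6, pandas 2.3.3 and matplotlib 3.10.9 were used. The members and lists were chosen with earlier results of these data known. All 37 members are named; of other lists the most abundant genes and those at least 2-fold apart could be named. The split by transcript class was added after the values were seen. Some genes of the lists are not reported here.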

Additional observations from a re-analysis of the deposited data

How the results depend on the processing

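The count of members at least 2-fold higher in BM of the transcript table lay between 15 and 19 over all alternatives run, while the share of all genes lay between 8.64% and 14.6%, and the members' median ratio between 0.90 and 1.26. The count of lower members was 2; it was 1 with a pseudocount of 1 FPKM, 0 with a minimum of 5 FPKM in either column, 1 with the highest linked transcript in place of the sum, and 3 with no filter on low values, while the share of all genes lay between 6.45% and 13.1%. Clec1b was within 2-fold with that pseudocount and with the highest transcript, and both lower members are under 5 FPKM. Alox12 passed 2-fold with a pseudocount of 0.01 FPKM, without centring, with transcripts expected to encode protein and with BM of the gene table in place of FL. Clu was no longer 2-fold higher with a pseudocount of 1 FPKM or with transcripts expected to encode protein, and Gp1ba no longer so with the highest transcript (0.75). The F13a1 ratio was -1.30 with a pseudocount of 1 FPKM and -3.87 with 0.01 FPKM. In the gene table the counts lay between 8 and 10 higher (5.85% to 17.2% of all genes) and between 11 and 14 lower (23.6% of all genes as reported and 15.7% without a filter), and the median between -0.64 and -0.18. F2rl2 was no longer 2-fold higher there with a pseudocount of 1 FPKM (0.93). Without centring, Gp1bb entered the higher group and Pf4 left the lower one. No paired analysis was possible because the columns carry no replicate, and for the same reason no replicate could be left out. Without a replicate or an interval, a ratio was counted as moved when it differed by more than 1.5-fold. No depth is known.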
